A study of Oryza sativa with 6 samples.

Results

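Starch and sucrose are the products in which a leaf stores and ships the carbon it fixes. The genes of their synthesis and of sugar transport were compared between Balilla-4x and Balilla-2x rice leaves. The list holds 39 genes, chosen by name and locus: starch synthases, ADP-glucose pyrophosphorylase subunits, branching and debranching enzymes, the plastidial phosphorylase, enzymes of sucrose metabolism, and sugar carriers. The choice was made with earlier results of these data known. Of the 39 genes, 38 have a row among the 55986 gene models of the count table. The pullulanase gene PUL (LOC_Os04g08270) was not analysed here. After the filter on low counts, 35 of them were tested among 20976 genes. The deposited tables hold locus identifiers without names, and the names used here are those given with the list. Published schemes number AGPL1 and AGPL3 differently, so the locus printed beside each name is what identifies the gene.

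Balilla-4x is an artificial tetraploid (4x, 48 chromosomes) obtained by doubling the genome of Balilla-2x, a diploid (2x, 24 chromosomes) japonica line of Oryza sativa from Italy with poor seed set. Both lines were field-grown in Shanghai paddies with the treatment labelled normal, and leaves were taken at 4 weeks. Each line has 3 libraries of total leaf RNA, and nothing in the labels tells whether separate plants were used. The p-values therefore rest on the spread among these libraries, which could be technical. Values are shares of each library's RNA and do not measure the amount of RNA in a cell, and fewer cells of a type cannot be told apart from less RNA per cell.

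In the chloroplast, ADP-glucose pyrophosphorylase makes ADP-glucose from photosynthetic sugar phosphate, starch synthases add its glucose to growing chains, branching enzymes create the branch points, and debranching enzymes trim them. Starch made by day in this way is broken down at night. In the cytosol, fructose-1,6-bisphosphatase and sucrose-phosphate synthase direct triose phosphate into sucrose, SWEET proteins release sucrose from cells, and SUT carriers take it up, also into the phloem. Cereals carry separate gene copies of several starch enzymes for leaf and for endosperm.

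The libraries held 16738447 to 17078688 counts in Balilla-4x and 17147985 to 18106962 counts in Balilla-2x. The listed genes together took 0.232% to 0.269% of the counts in Balilla-4x libraries and 0.198% to 0.226% in Balilla-2x libraries. These ranges did not overlap, but they rest on library totals. The TMM scaling factors used in the test below were 1.004 to 1.037 in Balilla-4x and 0.974 to 0.985 in Balilla-2x. With them, Balilla-2x replicate 1 lay within the Balilla-4x range. Across genes, log2 CPM correlated at 0.971 to 0.984 within lines, and Balilla-4x replicate 1 was the library least like its own line.

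Of the 35 tested genes, 11 (31.4%) passed an adjusted p of 0.05 in edgeR's quasi-likelihood test, against 26.1% of all tested genes. In 8 of them the level was higher in Balilla-4x (12.4% of all tested genes were called higher) and in 3 it was lower (13.7%). The genes that rose were the starch synthase genes GBSSII, SSI and SSIVa, the pyrophosphorylase large subunits AGPL1 and AGPL3, the branching enzyme BEIIa, cytosolic fructose-1,6-bisphosphatase and the sucrose carrier SUT1. Those that fell were AGPL2, the sucrose-phosphate synthase gene on chromosome 2 and the exporter SWEET13. Among the called genes, 7 of the 35 (20%) differed 2-fold or more, against 11.7% of all tested genes. These were 6 higher and 1 lower in Balilla-4x, where 6.55% and 5.18% of all tested genes were. For 18 genes (51.4%) the CPM, the read count per library size after TMM scaling, of the lines did not overlap, 11 with Balilla-4x above and 7 with it below, against 44.3%, 21.6% and 22.6% of all tested genes. The median log2 fold change, Balilla-4x over Balilla-2x, was 0.28 over the 35 genes and 0.01 over all tested genes.

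Most starch enzyme genes had a positive fitted log2 fold change, and most genes of sucrose enzymes and sugar carriers a negative one. Among the 20 tested starch enzyme genes, 17 had a higher fitted level in Balilla-4x (51.0% of all tested genes had), 6 rose, 1 fell and 13 did not pass, with a median log2 fold change of 0.57. Among the 10 enzymes of sucrose metabolism, 3 had a higher fitted level, 1 rose, 1 fell and 8 did not pass, and the median was -0.15. Of the 5 tested sugar carriers, 2 had a higher fitted level, 1 rose, 1 fell and 3 did not pass. With library totals or upper-quartile factors in place of TMM scaling, 18 of the 20 starch enzyme genes and 5 of the 10 sucrose enzyme genes had a higher fitted level. These counts describe the list, and the difference between the groups of genes was not tested.

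The call rested on the whole set of libraries for 6 of the 11 genes. GBSSII, SSI, SSIVa, AGPL1 and AGPL3 passed the threshold in each of the 17 alternatives run, including the omission of any library. Without Balilla-4x replicate 1, which is least like its line, 10 genes were higher and 6 lower. Leaving out Balilla-4x replicate 2 gave 5 higher and 0 lower, and leaving out Balilla-4x replicate 3 gave 8 and 0. Leaving out replicate 1, 2 or 3 of Balilla-2x gave 10 and 2, 6 and 1, and 6 and 0. The calls over all tested genes moved too, from 26.1% with all libraries. They were 30.7%, 14.2% and 15.4% without Balilla-4x replicate 1, 2 and 3. Without Balilla-2x replicate 1, 2 and 3 they were 19.9%, 18.7% and 15.2%. The 7 genes changed at least 2-fold became 4 on omission of Balilla-4x replicate 2 or 3 and 3 on omission of Balilla-2x replicate 3. For the lower genes, an unadjusted p under 0.05 in edgeR was reached by 4, 4 and 7 genes in the 3 omissions that gave 0, in the order named. DESeq2 called 10 higher and 5 lower with all libraries, where it called 19.2% of the 30986 genes given to it.

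**Figure D1:**
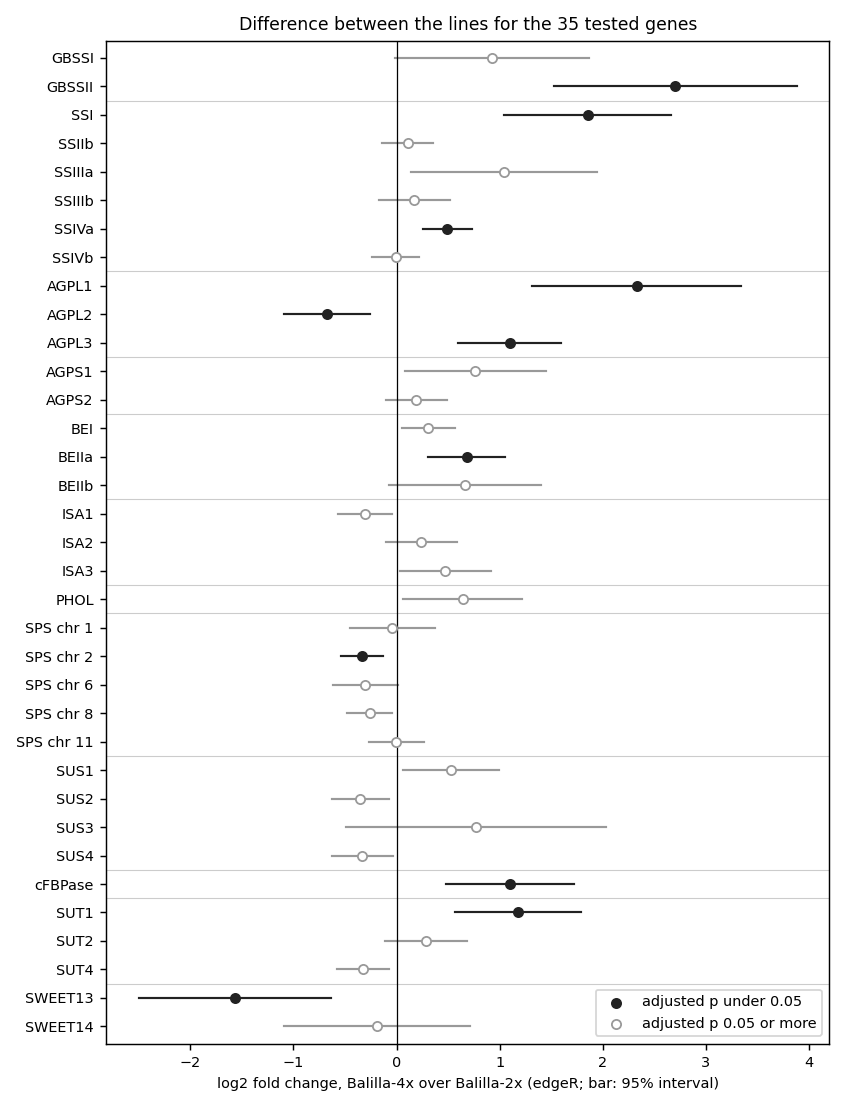
Fitted log2 fold change of Balilla-4x over Balilla-2x (horizontal axis) with its 95% interval for the 35 tested genes, in the order of their roles, with filled symbols for an adjusted p under 0.05. GBSSII, AGPL1 and SSI lie farthest to the right at 2.70, 2.33 and 1.85, SWEET13 lies farthest to the left at -1.57, and the sucrose-phosphate synthases lie at or left of 0, which for those of chromosomes 1 and 11 turns to the right of 0 with library totals.

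Within 4 enzyme classes that have a form known from leaf and one known from endosperm, the leaf form was higher in every library as FPKM, which is per gene length and can be compared between genes. GBSSII, the leaf enzyme for amylose, had 22, 85.7 and 39.8 FPKM in the Balilla-4x libraries and 11.7, 4.25 and 5.69 FPKM in the Balilla-2x libraries, whereas GBSSI, the endosperm enzyme encoded by the Waxy locus, had 0.405 to 0.938 FPKM in Balilla-4x and 0.262 to 0.395 FPKM in Balilla-2x. SSIIb, the leaf form of its class, lay at 17.3 to 22.1 FPKM in Balilla-4x and 16.7 to 19.3 FPKM in Balilla-2x. Its endosperm counterpart SSIIa had 0 counts in 5 libraries and 3 counts in Balilla-2x replicate 1. SSIIIb likewise exceeded SSIIIa, with 3.75 to 5.17 FPKM against 0.741 to 1.12 FPKM in Balilla-4x and 3.28 to 4.08 FPKM against 0.202 to 0.651 FPKM in Balilla-2x. BEIIa, the class II branching enzyme found in leaves, had 26.4, 34.3 and 28 FPKM in the Balilla-4x libraries and 21.7, 16.6 and 14.8 FPKM in the Balilla-2x libraries, and its endosperm counterpart BEIIb 1.57 to 3.46 FPKM in Balilla-4x and 1.1 to 2.03 FPKM in Balilla-2x. The order did not hold between classes. ISA1 was counted here with the endosperm forms, though no leaf form of its class was named. At 7.02 to 7.29 FPKM in Balilla-4x and 7.67 to 9.6 FPKM in Balilla-2x, it exceeded the leaf form SSIIIb in every library. The large subunits of ADP-glucose pyrophosphorylase were left out of this comparison. Their endosperm form AGPL2 lay below AGPL3 in every library. It lay below AGPL1 in every Balilla-4x library and above it in every Balilla-2x library. The leaf forms marked in the list were GBSSII, SSIIb and SSIIIb, and BEIIa, which was not among them, was added here. The FPKM of BEIIa rests on a short implied length of 1266 bases. Leaf markers outside the list were not used here.

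The 6 endosperm forms (GBSSI, SSIIa, SSIIIa, BEIIb, ISA1 and AGPL2) summed to 15.7, 15.8 and 15.3 FPKM in the Balilla-4x libraries and 18, 16.9 and 17 FPKM in the Balilla-2x libraries. The sum was a little lower in every tetraploid library. Most of it came from ISA1 and AGPL2, for which no leaf counterpart was set here. Their fitted log2 fold changes were -0.30 and -0.68, and of these only AGPL2 passed. GBSSI, SSIIIa and BEIIb lay the other way, at 0.93, 1.04 and 0.66, and did not pass in edgeR. SSIIa was too low to test. The lower sum therefore does not describe the endosperm forms one by one.

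**Figure D2:**
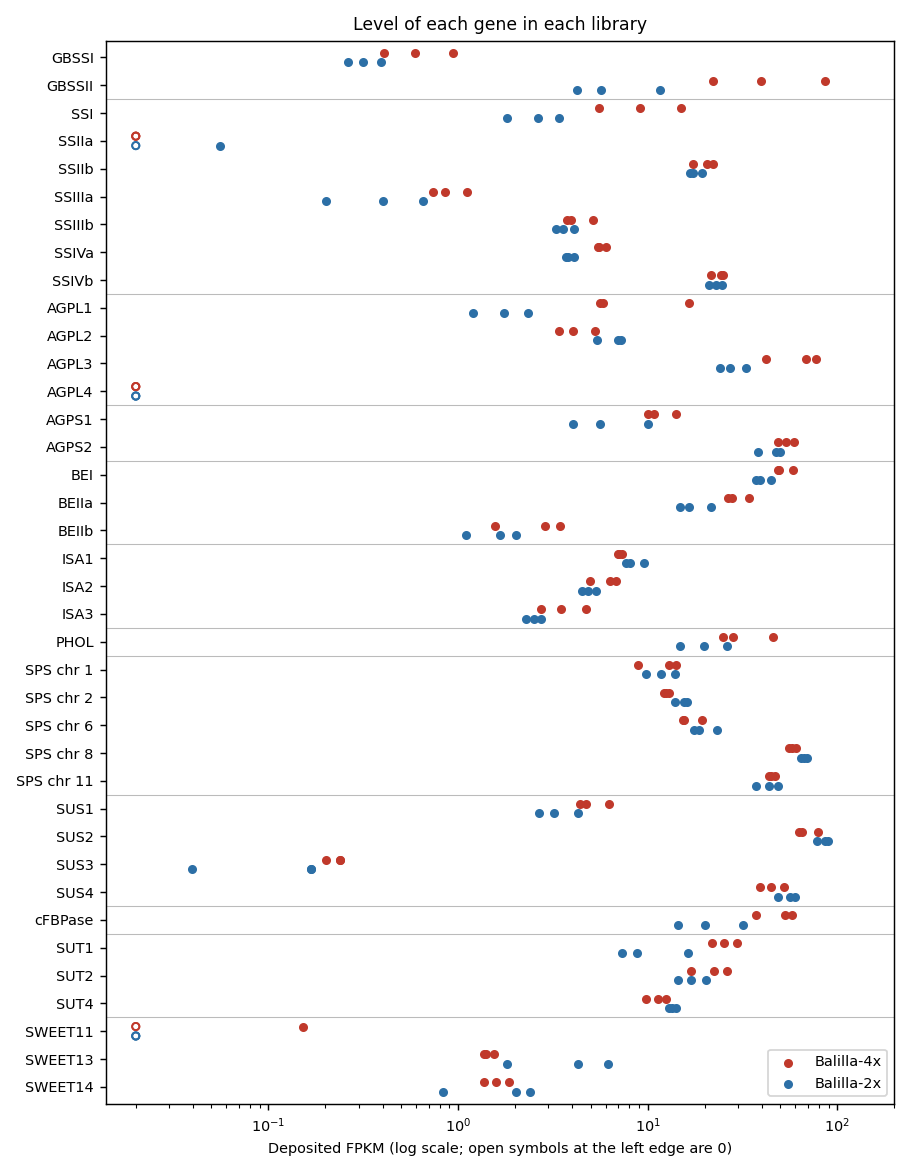
Deposited FPKM of the 38 genes in each library on a log axis, by role, with 3 points per line (Balilla-4x above, Balilla-2x below) and open symbols for 0. SUS2 and GBSSII reach the highest values (88.8 FPKM in a Balilla-2x library and 85.7 FPKM in a Balilla-4x library), while SSIIa, AGPL4, SUS3 and SWEET11 lie below 0.25 FPKM in all libraries.

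Granule-bound starch synthase makes the long unbranched chains of amylose inside the granule. GBSSII (LOC_Os07g22930), on chromosome 7, had 69.9, 267 and 128 CPM in the Balilla-4x libraries and 38.8, 14 and 18.7 CPM in the Balilla-2x libraries, scaled to the library by TMM. The lines did not overlap, although the highest Balilla-4x library, replicate 2, held several times the value of replicate 1. GBSSII rose 6.51-fold (95% interval 2.88 to 14.7), a log2 fold change of 2.70 ± 0.52 (SE) with an edgeR adjusted p of 0.0068. This was the largest fitted fold change in the list. The log2 fold change was 2.07 without Balilla-4x replicate 2 and 3.24 without Balilla-2x replicate 1, and the call held in both. GBSSI (LOC_Os06g04200) had counts of 20, 47 and 30 in the Balilla-4x libraries and of 14, 21 and 16 in the Balilla-2x libraries, which overlapped, and did not pass (edgeR adjusted p = 0.132).

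Among the 7 soluble starch synthases, which lengthen the chains of amylopectin, SSI and SSIVa rose, 4 did not pass and SSIIa was too low to test. SSI (LOC_Os06g06560), which extends the shortest chains, had 15.5, 41.4 and 26.1 CPM in the Balilla-4x libraries and 9.98, 5.31 and 7.64 CPM in the Balilla-2x libraries. All tetraploid libraries lay above all diploid ones. It rose 3.61-fold (95% interval 2.06 to 6.33), with an edgeR adjusted p of 0.00682. SSIVa (LOC_Os01g52250) belongs to the class that starts new granules in Arabidopsis, and had 30.6, 27.5 and 28.2 CPM in the Balilla-4x libraries and 19.8, 21.6 and 19.9 CPM in the Balilla-2x libraries. Here the libraries of a line lay close together, and the rise was small, 1.41-fold (95% interval 1.19 to 1.66), with an edgeR adjusted p of 0.0103.

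The most abundant soluble form, SSIVb (LOC_Os05g45720), had 25, 24.5 and 21.7 FPKM in the Balilla-4x libraries and 24.7, 22.8 and 21.1 FPKM in the Balilla-2x libraries. The lines overlapped, and the fitted ratio of Balilla-4x to Balilla-2x was 0.994, with a 95% interval of 0.849 to 1.17, and lay above 1 with library totals. SSIIb (LOC_Os02g51070) had a ratio of 1.08 (95% interval 0.906 to 1.28) and SSIIIb (LOC_Os04g53310) one of 1.13 (95% interval 0.888 to 1.43), and neither passed. SSIIIa (LOC_Os08g09230), a low gene with counts of 108, 84 and 73 in the Balilla-4x libraries and of 68, 42 and 20 in the Balilla-2x libraries, did not overlap between the lines but missed the threshold (edgeR adjusted p = 0.0846). Without Balilla-2x replicate 1 its edgeR adjusted p was 0.0303. Of the summed FPKM of the family, SSI took 15% ± 5.86 in the tetraploid and 5.1% ± 1.44 in the diploid (SD, n = 3 each). SSIVb took 37% ± 3.38 in the tetraploid and 44.6% ± 1.06 in the diploid (SD, n = 3 each).

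ADP-glucose pyrophosphorylase catalyses the committed step of starch synthesis as a complex of large and small subunits, and its large subunits moved in opposite directions. AGPL3 (LOC_Os03g52460), the most abundant large subunit, had 86.6, 138 and 161 CPM in the Balilla-4x libraries and 71.1, 57.7 and 51.3 CPM in the Balilla-2x libraries. No diploid library reached the lowest tetraploid one. It rose 2.14-fold (95% interval 1.52 to 3.03), with an edgeR adjusted p of 0.00799. AGPL1 (LOC_Os05g50380) had 13.6, 38.3 and 13.4 CPM in the Balilla-4x libraries and 5.78, 2.94 and 4.26 CPM in the Balilla-2x libraries. Balilla-4x replicate 2 stood well above the other tetraploid libraries, which were still above every diploid one. AGPL1 rose 5.03-fold (95% interval 2.49 to 10.2), with an edgeR adjusted p of 0.00675, and the log2 fold change of 2.33 became 1.66 without Balilla-4x replicate 2 (edgeR adjusted p = 0.0105).

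AGPL2 (LOC_Os01g44220), the large subunit of the cytosolic enzyme of the endosperm, had 17.9, 11.4 and 13.8 CPM in the Balilla-4x libraries and 19.2, 24.4 and 25.2 CPM in the Balilla-2x libraries. It was lower in every tetraploid library than in any diploid one and fell to 0.626 of the diploid level (95% interval 0.468 to 0.838, edgeR adjusted p = 0.0286). The edgeR adjusted p was 0.107 without Balilla-4x replicate 2, 0.093 without Balilla-4x replicate 3, 0.0788 without Balilla-2x replicate 2 and 0.0929 without Balilla-2x replicate 3. AGPL4 (LOC_Os07g13980) had 0 counts in all 6 libraries, where 3 counts, the limit that a count of 0 allows, equal 0.170 to 0.178 CPM, and this covers counting error only. Within the summed FPKM of the large subunits, AGPL2 took 6.15% ± 3.32 in the tetraploid and 18.3% ± 4.42 in the diploid (SD, n = 3 each), while AGPL3 took 81.9% ± 6.17 in the tetraploid and 76.9% ± 4.0 in the diploid (SD, n = 3 each). The whole family summed to 53.3, 88.5 and 86.9 FPKM in the Balilla-4x libraries and 40.9, 35.2 and 33.1 FPKM in the Balilla-2x libraries.

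Neither small subunit passed in edgeR, where 1 of the 2 had an unadjusted p under 0.05. DESeq2 called 1 and both limma-voom and limma on log2(FPKM + 1) called 0. AGPS2 (LOC_Os08g25734), whose transcripts encode both a leaf plastid form and an endosperm form, had 111, 120.4 and 136 CPM in the Balilla-4x libraries and 113, 118 and 89.5 CPM in the Balilla-2x libraries. The lines overlapped, and the ratio was 1.14 (95% interval 0.93 to 1.4). Counts per gene do not separate its transcripts. AGPS1 (LOC_Os09g12660) had 21.4, 27.7 and 20.2 CPM in the Balilla-4x libraries and 20.9, 8.31 and 11.5 CPM in the Balilla-2x libraries. Only Balilla-2x replicate 1 reached the tetraploid range, and without it the edgeR adjusted p was 0.00815 in place of 0.0935.

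**Figure D3:**
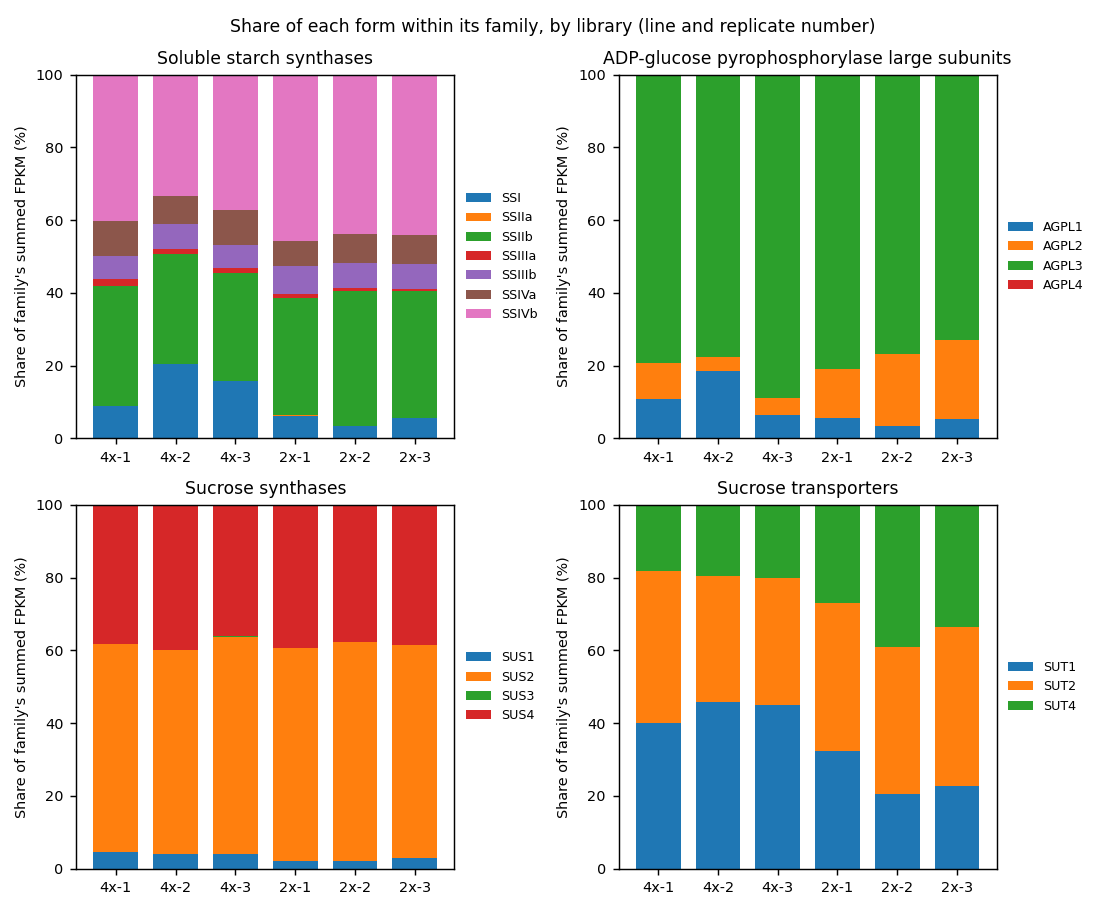
Share of each form in the summed FPKM of its family (vertical axis, percent) in each of the 6 libraries, with Balilla-4x libraries on the left of each panel. SSI and SUT1 take a larger share and AGPL2 and SUT4 a smaller share in every Balilla-4x library than in any Balilla-2x library, while SUS2 takes 55.8% to 59.7% in Balilla-4x and 58.4% to 60.2% in Balilla-2x.

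Of the 3 branching enzymes, which cut and reattach chains to form branch points, BEIIa rose and the other two did not pass. BEI (LOC_Os06g51084), the most abundant, had 237, 279 and 242 CPM in the Balilla-4x libraries and 226, 189 and 196 CPM in the Balilla-2x libraries. The lines did not overlap, but the ratio of 1.24 (95% interval 1.04 to 1.48) missed the threshold (edgeR adjusted p = 0.0776). It was 0.0498 without Balilla-4x replicate 1. BEIIa (LOC_Os04g33460), the class II form found in leaves, had 32.8, 41.8 and 35.3 CPM in the Balilla-4x libraries and 28.2, 21.4 and 19 CPM in the Balilla-2x libraries. All tetraploid libraries were higher. BEIIa rose 1.6-fold (95% interval 1.24 to 2.07), with an edgeR adjusted p of 0.0172, which became 0.0675 without Balilla-4x replicate 2, 0.058 without Balilla-2x replicate 2 and 0.0611 without Balilla-2x replicate 3.

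The length that the deposited FPKM imply for BEIIa, 1266 bases, was the shortest of the 37 genes with a count, the next being 1521 bases for SWEET14, and its FPKM relative to other genes rests on that length. The endosperm form BEIIb (LOC_Os02g32660) had 5.03, 10.9 and 9.39 CPM in the Balilla-4x libraries and 6.8, 3.67 and 5.51 CPM in the Balilla-2x libraries. The lines overlapped and BEIIb did not pass (edgeR adjusted p = 0.164), except without Balilla-4x replicate 1, where it was 0.0286.

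The debranching enzymes showed no call in edgeR among 3 tested genes, of which 2 had an unadjusted p under 0.05. DESeq2, limma-voom and limma on log2(FPKM + 1) also called 0. ISA1 (LOC_Os08g40930), the catalytic isoamylase of amylopectin synthesis and the most abundant of them, had 26.9, 25.8 and 26.4 CPM in the Balilla-4x libraries and 37.2, 31 and 29.4 CPM in the Balilla-2x libraries. It was lower in every tetraploid library, at a ratio of 0.81 (95% interval 0.675 to 0.972, edgeR adjusted p = 0.0857). ISA2 (LOC_Os05g32710), its non-catalytic partner, had a ratio of 1.18 (95% interval 0.931 to 1.5). ISA3 (LOC_Os09g29404), which acts in the breakdown of leaf starch, had a ratio of 1.39 (95% interval 1.02 to 1.89) and an edgeR adjusted p of 0.107, or 0.0478 without Balilla-4x replicate 3. In both genes the lines overlapped.

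The plastidial phosphorylase PHOL (LOC_Os03g55090), which adds glucose to or removes it from chain ends, had 78.7, 127 and 71 CPM in the Balilla-4x libraries and 76.9, 43.1 and 57.3 CPM in the Balilla-2x libraries. Balilla-4x replicate 2 was far above the rest and Balilla-2x replicate 1 lay within the tetraploid range. The ratio of 1.56 (95% interval 1.04 to 2.33) did not pass in edgeR (adjusted p = 0.0979), but did in DESeq2 (adjusted p = 0.0433).

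**Figure D4:**
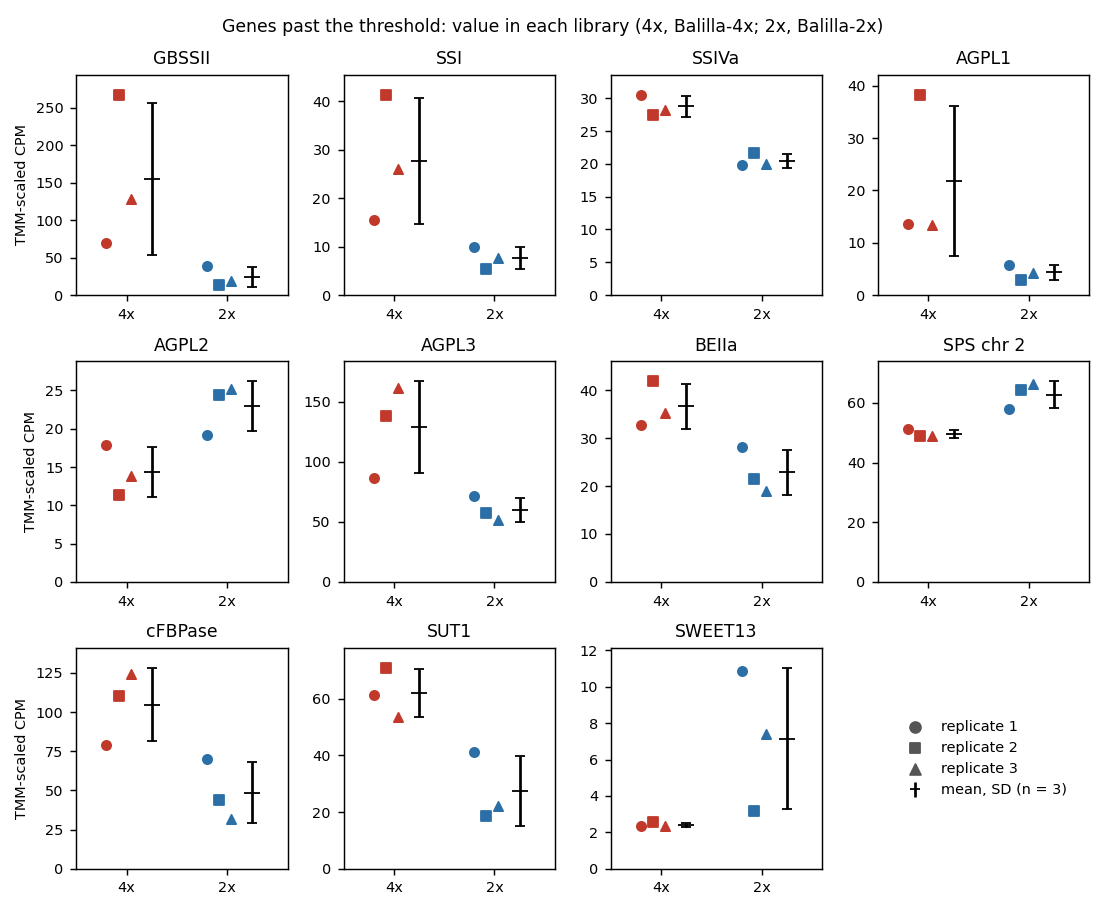
TMM-scaled CPM of the 11 genes with an adjusted p under 0.05 in each library (symbols by replicate number) with the mean and SD of each line (n = 3), Balilla-4x left and Balilla-2x right in each panel. The lines do not overlap in any of the 11 panels, and the spread relative to its mean is widest for GBSSII, SSI and AGPL1 in Balilla-4x and for SWEET13, GBSSII and SUT1 in Balilla-2x.

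On the sucrose side, the cytosolic fructose-1,6-bisphosphatase (LOC_Os01g64660) was the gene that rose. It converts fructose bisphosphate to fructose 6-phosphate on the way to sucrose. Its level was 78.8, 110.4 and 124 CPM in the Balilla-4x libraries and 70.1, 44 and 31.8 CPM in the Balilla-2x libraries. Balilla-2x replicate 1 came near the lowest tetraploid library but did not reach it. The gene rose 2.15-fold (95% interval 1.4 to 3.31), with an edgeR adjusted p of 0.0197. That p became 0.0665 without Balilla-4x replicate 2, 0.0688 without Balilla-4x replicate 3, 0.0633 without Balilla-2x replicate 2 and 0.0525 without Balilla-2x replicate 3. Without Balilla-2x replicate 1 the log2 fold change of 1.10 became 1.46.

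Sucrose-phosphate synthase, which joins fructose 6-phosphate to UDP-glucose, is encoded by 5 listed genes, of which 1 fell and 4 did not pass. With TMM scaling 0 of the 5 had a fitted level above the diploid one, and with library totals 2, those on chromosomes 1 and 11. The gene on chromosome 2 (LOC_Os02g09170) had 51.2, 48.8 and 49 CPM in the Balilla-4x libraries and 57.9, 64.2 and 66.3 CPM in the Balilla-2x libraries. The groups did not overlap, and the tetraploid libraries were almost equal to each other. It fell to 0.791 of the diploid level (95% interval 0.687 to 0.912, edgeR adjusted p = 0.0259). The edgeR adjusted p was 0.106 without Balilla-4x replicate 2, 0.0855 without Balilla-4x replicate 3, 0.0732 without Balilla-2x replicate 2 and 0.0928 without Balilla-2x replicate 3. With library totals in place of TMM scaling it was 0.0559.

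The most abundant sucrose-phosphate synthase gene lies on chromosome 8 (LOC_Os08g20660) and had 58, 55.5 and 60.8 FPKM in the Balilla-4x libraries and 69.1, 66.8 and 64.7 FPKM in the Balilla-2x libraries. It was lower in every tetraploid library, at a ratio of 0.834 (95% interval 0.717 to 0.971), and missed the threshold in edgeR (adjusted p = 0.0775). The gene on chromosome 11 (LOC_Os11g12810) had a ratio of 1.00 (95% interval 0.833 to 1.2), and the gene on chromosome 1 (LOC_Os01g69030) one of 0.973 (95% interval 0.73 to 1.3). For the gene on chromosome 6 (LOC_Os06g43630) the ratio was 0.811 and the edgeR adjusted p 0.139, which became 0.0377 without Balilla-4x replicate 1. The family as a whole summed to 151, 141 and 141 FPKM in the Balilla-4x libraries and 159, 159 and 153 FPKM in the Balilla-2x libraries, the highest sum of any family listed.

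Sucrose synthase splits sucrose into fructose and UDP-glucose, mostly in tissues that consume sugar. In edgeR 0 of its 4 genes passed and 3 had an unadjusted p under 0.05, while DESeq2 called 1, and limma-voom and limma on log2(FPKM + 1) called 0. SUS2 (LOC_Os06g09450), with the highest mean FPKM of the list in Balilla-4x and in Balilla-2x, had 78.9, 62.9 and 64.8 FPKM in the Balilla-4x libraries and 88.8, 78.3 and 85.7 FPKM in the Balilla-2x libraries. Scaled by TMM, it was lower in every tetraploid library, at a ratio of 0.784 (95% interval 0.648 to 0.949) and an edgeR adjusted p of 0.063. It was 0.0115 without Balilla-4x replicate 1 and 0.0324 in DESeq2. SUS4 (LOC_Os03g22120) had 144, 121 and 109 CPM in the Balilla-4x libraries and 171, 139 and 159.7 CPM in the Balilla-2x libraries, which overlapped, and its edgeR adjusted p of 0.0939 became 0.019 without Balilla-4x replicate 1.

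The low forms lay the other way. SUS1 (LOC_Os03g28330) had 21.6, 16.1 and 15.4 CPM in the Balilla-4x libraries and 11.7, 9.67 and 15.4 CPM in the Balilla-2x libraries. Balilla-2x replicate 3 lay marginally above the lowest tetraploid library, and the edgeR adjusted p was 0.0883, or 0.0492 without that library. SUS3 (LOC_Os07g42490), known from developing grain, had counts of 10, 12 and 12 in the Balilla-4x libraries and of 9, 9 and 2 in the Balilla-2x libraries. Its CPM did not overlap between the lines, but it did not pass (edgeR adjusted p = 0.337). SUS1 took 4.24% ± 0.251 in the tetraploid and 2.37% ± 0.486 in the diploid (SD, n = 3 each) of the family's FPKM, and SUS2 with SUS4 nearly all of the rest.

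SUT1 (LOC_Os03g07480) rose among the sucrose transporters, the proton-coupled carriers that take up sucrose. Its values were 61.4, 70.8 and 53.7 CPM in the Balilla-4x libraries and 41.4, 18.5 and 22.1 CPM in the Balilla-2x libraries. No diploid library reached the tetraploid range, and Balilla-2x replicate 1 came closest. It rose 2.27-fold (95% interval 1.48 to 3.46), with an edgeR adjusted p of 0.0141, which became 0.0564 without Balilla-4x replicate 2 and 0.057 without Balilla-2x replicate 3. SUT2 (LOC_Os12g44380), which exports sucrose from the vacuole, had 61.2, 51.4 and 40.1 CPM in the Balilla-4x libraries and 49.7, 35.1 and 40.8 CPM in the Balilla-2x libraries. These overlapped, and the ratio was 1.22 (95% interval 0.923 to 1.6). SUT4 (LOC_Os02g58080) was lower in every tetraploid library, with 27, 29.3 and 23.5 CPM in the Balilla-4x libraries and 33.4, 34.7 and 32 CPM in the Balilla-2x libraries, and missed the threshold (ratio 0.797, edgeR adjusted p = 0.0616).

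Within the transporter family, SUT1 took 43.6% ± 3.04 in the tetraploid and 25.2% ± 6.4 in the diploid (SD, n = 3 each) of the family's FPKM. SUT4 took 19.2% ± 1.05 in the tetraploid and 33.2% ± 6.15 in the diploid (SD, n = 3 each). For SUT2 the share was 37.1% ± 3.99 in the tetraploid and 41.6% ± 1.84 in the diploid (SD, n = 3 each), and the largest mean share belonged to SUT1 in Balilla-4x and to SUT2 in Balilla-2x.

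The SWEET exporters, known also as the genes that Xanthomonas oryzae switches on in bacterial blight, were the lowest family, at 0 to 6.21 FPKM. SWEET13 (LOC_Os12g29220) had counts of 40, 45 and 40 in the Balilla-4x libraries and of 192, 56 and 125 in the Balilla-2x libraries. The tetraploid libraries were nearly alike, whereas the diploid ones were spread widely, and the groups did not overlap as TMM-scaled CPM. SWEET13 fell to 0.338 of the diploid level (95% interval 0.177 to 0.643, edgeR adjusted p = 0.0239), and limma-voom gave an adjusted p of 0.0733. The edgeR adjusted p was 0.0772 and 0.0754 on omission of Balilla-4x replicates 2 and 3, and 0.0752 and 0.0656 on omission of Balilla-2x replicates 1 and 3. SWEET14 (LOC_Os11g31190) had counts of 35, 48 and 41 in the Balilla-4x libraries and of 66, 23 and 53 in the Balilla-2x libraries, with a ratio of 0.877 (95% interval 0.468 to 1.64). SWEET11 (LOC_Os08g42350) had 4 counts in Balilla-4x replicate 1 and 0 in the other libraries, and was too low to test.

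Libraries of the same line differed together for many of these genes. Within Balilla-4x, replicate 2 was the highest library for 17 of the 35 tested genes (48.6%), against 29.4% of all tested genes, and for 13 of the 20 starch enzyme genes. Within Balilla-2x, replicate 1 was the highest library for 23 of the 35 (65.7%), against 35.3% of all tested genes. Both held for GBSSII, SSI, SSIIIb, AGPL1, AGPS1, BEI, BEIIa, BEIIb, PHOL, SUT1, SWEET13 and SWEET14. The genes share these libraries and are no independent evidence of one another, and the labels used here give no hour of sampling by which to compare them. The part of these libraries in the differences between the lines was not tested beyond leaving each one out.

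**Figure D5:**
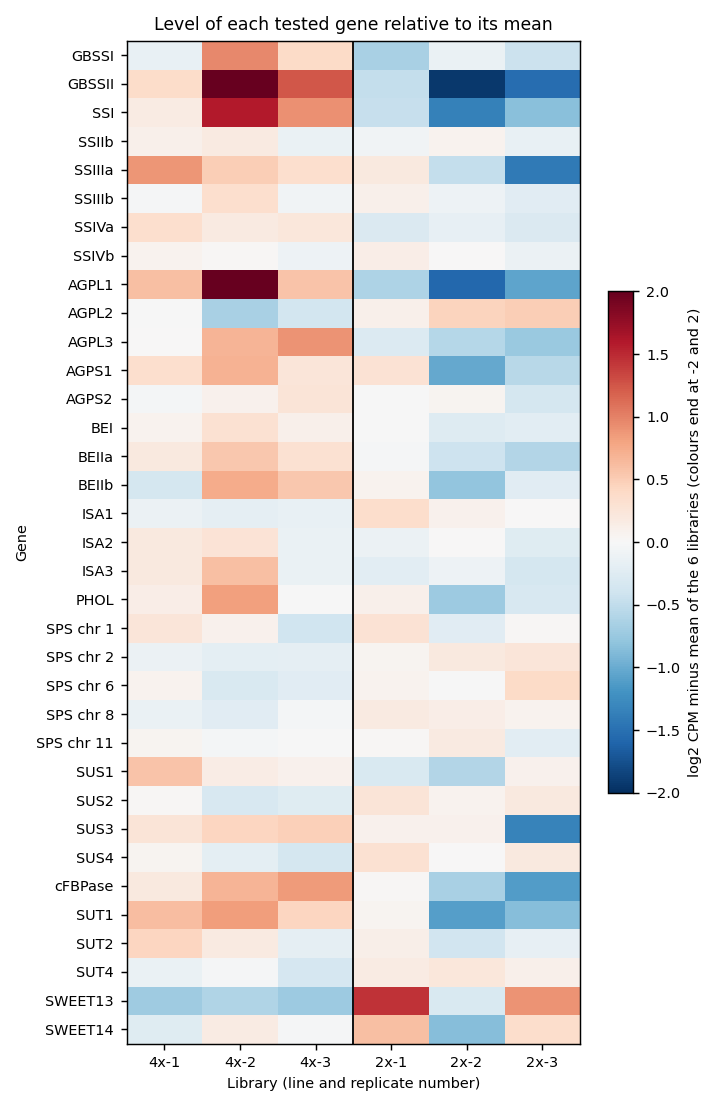
Log2 CPM of the 35 tested genes (rows) in the 6 libraries (columns, Balilla-4x left of the line), each relative to the mean of the 6 libraries, with colours ending at -2 and 2. GBSSII, SSI and AGPL1 are darkest red in Balilla-4x replicate 2 and darkest blue in Balilla-2x replicate 2, and SWEET13 is red in Balilla-2x replicates 1 and 3.

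The genes that changed lie on chromosomes 1, 2, 3, 4, 5, 6, 7 and 12 by their locus identifiers. For each tested gene the 10 nearest tested genes by locus number were taken, 5 on each side where the chromosome allowed. Of the 11 genes that changed, 7 had at least 1 such neighbour called in the same direction, and the highest number was 3 of 10, for AGPL1 on chromosome 5. SSIIb and SUS1, which did not pass, also had 3. Of all tested genes, 12.4% were called higher and 13.7% lower in Balilla-4x. Those are shares of single genes and cannot be set beside a count of genes with at least 1 of 10 neighbours called. The share of all tested genes with such a neighbour was not determined. Counting neighbours that also differed 2-fold or more and the same way, 6 of the 7 genes changed at least 2-fold had 0, and AGPL1 had 3. Of the 35 tested listed genes, 25 had 0. Coordinates in bases were not used here.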

How the data were processed

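Per the submitters' processing notes, HISAT2 2.1.0 was used on the leaf libraries. How reads were counted, on which build and annotation and with what strand setting is not given in the sources used here, so genes that share reads with close copies, as members of these families may, are uncertain. The authors deposited raw read counts per gene and, per the file headers, FPKM for each library; the gene length implied by both was a whole number within 0.01 for 100% of nonzero values.

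The main test used edgeR 4.0.16 in R 4.3.3: filterByExpr on the line, TMM scaling, the two-sided quasi-likelihood F test on the whole table, and Benjamini-Hochberg adjustment over 20976 genes at 0.05. SE and 95% intervals were derived from the F statistic. Alternatives used DESeq2 1.42.0 and limma 3.58.1, including limma on log2 of FPKM plus 0.1, 1 or 5. Other scalings and count filters, the replicate number as a block, and the omission of each library in turn were also run. DESeq2 and edgeR used the raw counts. On simulated data for Balilla-4x against Balilla-2x (20678 genes), 70 of 100 genes changed 2-fold and 98 of 100 changed 4-fold were recovered. Another 15 genes, which had not been changed, were also called. The changed genes were drawn only from genes above a minimum mean count, so the recovery does not describe the lowest listed genes, such as SUS3. They were also a far smaller share of the genes than the 26.1% called in the data. Counts were drawn independently for each gene, whereas libraries of a line differed together for many listed genes. The recovery therefore need not hold for the test on the data. FPKM levels are scaled by library totals. Replicate numbers are not said to pair the libraries, and the main test did not pair them. The named genes were all listed genes, and the members and lists were chosen with earlier results of these data known.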

Additional observations from a re-analysis of the deposited data

How the results depend on the processing

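The counts of listed genes called higher (8) stayed at 8 to 10 over scalings, filters, tools, FPKM in place of counts and the replicate block, and ran from 5 to 10 with a library left out. The count called lower (3) was 5 with DESeq2, 0 with limma on log2 of FPKM plus 1, plus 0.1 and plus 5 (unadjusted p under 0.05: 5, 5 and 5 genes), and 0 to 6 with a library left out. FPKM carry no TMM factor. The genes changed at least 2-fold (7) numbered 4 with limma on log2 of FPKM plus 5, where the added value shrinks folds of low genes, and 3 to 8 with a library left out. Calls over all genes (5481) ran from 3029 to 6600 with a library left out. Of these calls 47.4% were higher in Balilla-4x with TMM, 57.2% with library totals and 60.4% with upper-quartile factors, and the median log2 fold change of all genes was 0.01, 0.07 and 0.10. For the listed genes, library totals and upper-quartile factors gave 9 higher and 2 lower, with BEI gained and the sucrose-phosphate synthase gene of chromosome 2 lost. Libraries with the same number did not deviate together (r = 0.0019, -0.02 and -0.04 across genes). This gives no sign of pairing, but with 3 libraries a line it cannot exclude a shared plant or day. With the number as a replicate block, 9 listed genes were higher and 1 lower, 8 changed at least 2-fold and 4617 genes were called in all. AGPL2 and the gene of chromosome 2 then did not pass (edgeR adjusted p = 0.0555 and 0.0538) and SSIIIa did (edgeR adjusted p = 0.0437). Over single genes and alternatives, 0 called values changed sign, 35 lost and 21 gained the call, and 538 kept their side of the threshold. With 3 libraries a line, the depth was lowest for SSIIa, AGPL4, SUS3 and SWEET11, at 12 counts or fewer in each library.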

Other observations

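In the 11 genes that passed, the tetraploid library nearest to the diploid values was most often Balilla-4x replicate 1 (7 of 11, against 58.6% of the 5481 genes called in all), and the diploid library nearest to the tetraploid values was most often Balilla-2x replicate 1 (9 of 11, against 44.2% of all called genes). Balilla-2x replicate 3 was the nearest for 0 of 11, against 18.3% of all called genes. These are counts chosen after the values had been seen, the genes share the libraries, and no test was made.

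The median coefficient of variation between libraries of a line was 14.4% in Balilla-4x and 16.8% in Balilla-2x over the 35 tested genes, against 13.5% and 12.5% over all tested genes. It exceeded 30% for 6 of the 35 genes in Balilla-4x and for 10 of them in Balilla-2x.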
